A study of Mus musculus with 4 samples.

Results

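*Wfdc17*, *Ifitm1*, *Cd14*, *Mrgpra2b* and *Stfa2l1* are 5 genes of myeloid cells that had the lowest *Sipa1*-/- to Wt signal ratios in sorted CD8+ T cells among 6918 named genes above the median signal. They are 5 of the 22911 genes with a symbol on the array and are read by 6 probes, 2 of them for *Cd14*. They were selected on these very ratios, so the ratios are given as a description and were not tested. Mesenchymal stroma cells (MSCs) and CD8+ T cells were sorted from subcutaneous tumors of Wt and *Sipa1*-/- mice, and each of the 4 kinds of cells was measured on 1 Agilent one-color mouse expression array. No difference therefore has a replicate check, and no p-value is given.

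The labels give the strain of all mice as C57BL/6Ncr, their age as 8 weeks and the time of sorting as day 12 after injection of 15000 GFP+ *Bcr-Abl*+ hematopoietic progenitor cells (HPCs) in Matrigel. Both genotypes received the same kind of HPCs, Wt bone marrow cells carrying a p210Bcr-Abl retrovirus, so that the groups differed in the host. *Sipa1*-/- hosts lack *Sipa1* in the germline, in every cell of the host, and had been crossed onto the B6 background. The series lists 5 mice of each genotype, and whether their RNA was pooled for an array is not stated in the sources used here. MSCs were taken as GFP- CD45- Ter119- CD31- cells and CD8+ T cells as GFP- TCRβ+ CD8+ cells. Neutrophils and monocytes do not carry TCRβ, so that the second gate selects against them, and it has no step that removes cells by a myeloid marker. In sorted bulk RNA, fewer cells of a type and less RNA of a gene per cell cannot be told apart.

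Neutrophils, monocytes and macrophages sense bacterial products at their surface, carry ready-made antimicrobial proteins and protease inhibitors, and are abundant in inflamed and tumor tissue. CD14 is a surface protein that hands bacterial lipopolysaccharide (LPS) to the receptor TLR4 and its partner MD-2, encoded by *Ly96*. *Wfdc17* encodes a small secreted protein with a whey acidic protein (WAP) domain, known from activated macrophages and microglia. *Ifitm1* encodes an interferon-induced membrane protein of the family that restricts virus entry. *Stfa2l1* belongs to the stefin A cluster, whose products are intracellular inhibitors of cysteine proteases such as cathepsins. *Mrgpra2b* encodes a Mas-related G protein-coupled receptor of a family best known from sensory neurons and mast cells.

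The start-site windows of 4 members are shown because *Mrgpra2b* and *Stfa2l1* sit among close copies of themselves, and so that the 4 can be set beside each other. The sequences are those of RefSeq on assembly GRCm38.p6 and run from 250 bases before to 50 bases after an annotated start, on the strand of the gene. For *Ifitm1* that start, base 140968076, lies downstream of the first base of the gene, 140967429, so that its window lies inside the gene. Capitals mark the 50 bases from the start on. *Wfdc17* lies at chr11:83703806-83704105 on the plus strand, *Ifitm1* at chr7:140967826-140968125 on the plus strand, *Mrgpra2b* at chr7:47489533-47489832 on the minus strand and *Stfa2l1* at chr16:36156561-36156860 on the plus strand.
Wfdc17: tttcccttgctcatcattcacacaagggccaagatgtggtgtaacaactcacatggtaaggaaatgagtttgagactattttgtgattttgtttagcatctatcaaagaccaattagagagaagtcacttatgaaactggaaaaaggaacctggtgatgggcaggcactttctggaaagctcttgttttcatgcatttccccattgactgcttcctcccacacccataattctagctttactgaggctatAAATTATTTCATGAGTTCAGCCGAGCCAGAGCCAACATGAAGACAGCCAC
Ifitm1: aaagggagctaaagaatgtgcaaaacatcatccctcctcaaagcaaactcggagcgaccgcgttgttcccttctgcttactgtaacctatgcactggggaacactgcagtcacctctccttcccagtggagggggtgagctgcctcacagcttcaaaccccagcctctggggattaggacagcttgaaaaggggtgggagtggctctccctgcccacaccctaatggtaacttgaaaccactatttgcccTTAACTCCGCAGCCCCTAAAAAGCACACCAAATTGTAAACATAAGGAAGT
Mrgpra2b: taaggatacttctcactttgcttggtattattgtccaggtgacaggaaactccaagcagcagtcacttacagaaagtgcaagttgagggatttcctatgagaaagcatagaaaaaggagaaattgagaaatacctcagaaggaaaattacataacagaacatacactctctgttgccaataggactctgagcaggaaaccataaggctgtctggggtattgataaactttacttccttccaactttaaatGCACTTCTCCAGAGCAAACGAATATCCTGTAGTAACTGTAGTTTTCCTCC
Stfa2l1: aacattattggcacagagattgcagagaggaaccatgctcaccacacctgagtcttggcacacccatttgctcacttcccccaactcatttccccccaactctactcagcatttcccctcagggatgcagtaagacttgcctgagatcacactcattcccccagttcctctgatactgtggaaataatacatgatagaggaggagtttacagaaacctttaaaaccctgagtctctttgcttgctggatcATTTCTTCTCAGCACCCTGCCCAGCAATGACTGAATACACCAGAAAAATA

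The window of *Mrgpra2a*, on the same chromosome at chr7:47452115-47452414, was identical to that of *Mrgpra2b* at 300 of 300 bases. The window of *Stfa2* at chr16:36408314-36408613 on the minus strand shared 275 identical positions with that of *Stfa2l1* over an alignment of 304. In the *Stfa2* window, capitals mark the 25 bases that have no identical partner in *Stfa2l1*, and the stretch around the start is the same in both genes.
Stfa2: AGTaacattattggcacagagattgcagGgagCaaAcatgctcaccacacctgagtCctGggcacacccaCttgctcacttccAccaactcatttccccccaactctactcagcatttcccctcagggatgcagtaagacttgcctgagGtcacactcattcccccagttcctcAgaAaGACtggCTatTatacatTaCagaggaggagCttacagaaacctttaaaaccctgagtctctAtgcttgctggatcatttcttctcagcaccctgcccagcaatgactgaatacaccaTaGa

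The windows of *Stfa1* and *Stfa3* were 79.4% and 80.9% identical to that of *Stfa2l1*. A search on both strands for an interferon response core (GAAA, any 2 bases, GAAA), a C/EBP core (TTGCNNAA), a PU.1 core (GAGGAAGT) and an NF-κB core (GGGA, any 4 bases, CC) gave 0 matches in the 4 member windows, so that no motif overlapped another. Among all 32851 windows of the table, 3.44%, 10.8%, 3.2% and 20.7% hold these letters in the same order. A window without a match says only that these letters are not in it. The first base of the *Ifitm1* gene lies outside its window.

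Before the results, the labels were checked against marker genes. *Sipa1*, the deleted gene, was lower on the *Sipa1*-/- arrays, with log2 ratios of -1.67 and -2.05 for its probes in CD8+ T cells and -1.25 and -1.59 in MSCs, and both probes stayed well above background everywhere. All 5 CD8+ T markers were well above background on both CD8+ T arrays, and their summed signal, in units of each array's 75th percentile, was 348 for Wt and 358.8 for the *Sipa1*-/- array. All 7 MSC or fibroblast markers were well above background on both MSC arrays, with sums of 908 and 1339. The 8 granulocyte markers that have a probe, led by *S100a9*, *S100a8*, *Csf3r* and *Camp*, were well above background on all 4 arrays, with sums of 622 and 328 in Wt and *Sipa1*-/- CD8+ T cells and 691 and 767 in Wt and *Sipa1*-/- MSCs. Granulocyte transcripts were thus present in both sorts, including the one gated as CD45-. The MSC or fibroblast markers differed in the other direction in the CD8+ T sort, with sums of 40.3 for the Wt and 123 for the *Sipa1*-/- array. The 75th percentile of signal was 16.4 to 19.7 times the median background on the 4 arrays, and all 4 lay on 1 slide.

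In CD8+ T cells every member probe was bright on the Wt array and 5.02- to 5.77-fold lower on the *Sipa1*-/- array, while in MSCs the same probes differed by 1.16- to 1.77-fold. Signals below are log2 values minus the 75th percentile of the array, so that 0 is the level of a spot at that percentile, and every member probe was well above background on every array. Each probe was 1 spot, and the error model of the scanner software gave its log2 ratio an error of 0.20. That error covers the spot and not the spread between mice, and it is called the spot error below. The SD of log2 ratios between replicate spots was smaller, with a median of 0.028 in CD8+ T cells and 0.033 in MSCs. Those medians come from 293 and 298 probes with replicate spots. A difference within the spot error can therefore exceed the spread between replicate spots.

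For *Cd14*, the LPS co-receptor, the brighter probe read 3.37 in Wt and 0.93 in *Sipa1*-/- CD8+ T cells, and 1.56 in Wt and 1.20 in *Sipa1*-/- MSCs. The other *Cd14* probe read 3.09, 0.67, 1.33 and 0.90 on these arrays in the same order. Both probes were highest in Wt CD8+ T cells and lowest in *Sipa1*-/- CD8+ T cells, with both MSC arrays between them. The log2 ratios of *Sipa1*-/- to Wt CD8+ T cells were -2.44 and -2.42, a 5.42-fold and a 5.35-fold lower signal, so that both probes gave the same size.

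The *Wfdc17* signal was 2.50 in Wt CD8+ T cells, -0.03 in *Sipa1*-/- CD8+ T cells, 0.48 in Wt MSCs and -0.19 in *Sipa1*-/- MSCs. The Wt CD8+ T array stood above the 3 others, and the 2 *Sipa1*-/- arrays lay within the spot error of each other. The CD8+ T log2 ratio of -2.53, 5.77-fold, was the lowest of the 6918 genes ranked.

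*Ifitm1* read 4.01 in Wt CD8+ T cells, 1.53 in *Sipa1*-/- CD8+ T cells, 2.65 in Wt MSCs and 1.82 in *Sipa1*-/- MSCs. Its order was that of *Cd14*, with *Sipa1*-/- CD8+ T cells lowest, and both MSC arrays were apart by 4 times the spot error. The CD8+ T log2 ratio was -2.48, 5.58-fold.

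*Stfa2l1* read 2.23 in Wt CD8+ T cells, -0.10 in *Sipa1*-/- CD8+ T cells, 0.17 in Wt MSCs and -0.04 in *Sipa1*-/- MSCs. It was high on the Wt CD8+ T array alone, and the 3 other arrays lay close together. The CD8+ T log2 ratio was -2.33, 5.02-fold.

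*Mrgpra2b*, the dimmest member, read 0.81 in Wt CD8+ T cells, -1.56 in *Sipa1*-/- CD8+ T cells, 0.41 in Wt MSCs and 0.12 in *Sipa1*-/- MSCs. Its pattern differed in shape, since the *Sipa1*-/- CD8+ T array stood far below the 3 others and the Wt CD8+ T array was 1.32-fold above the Wt MSC array. The CD8+ T log2 ratio was -2.37, 5.15-fold.

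**Figure D1:**
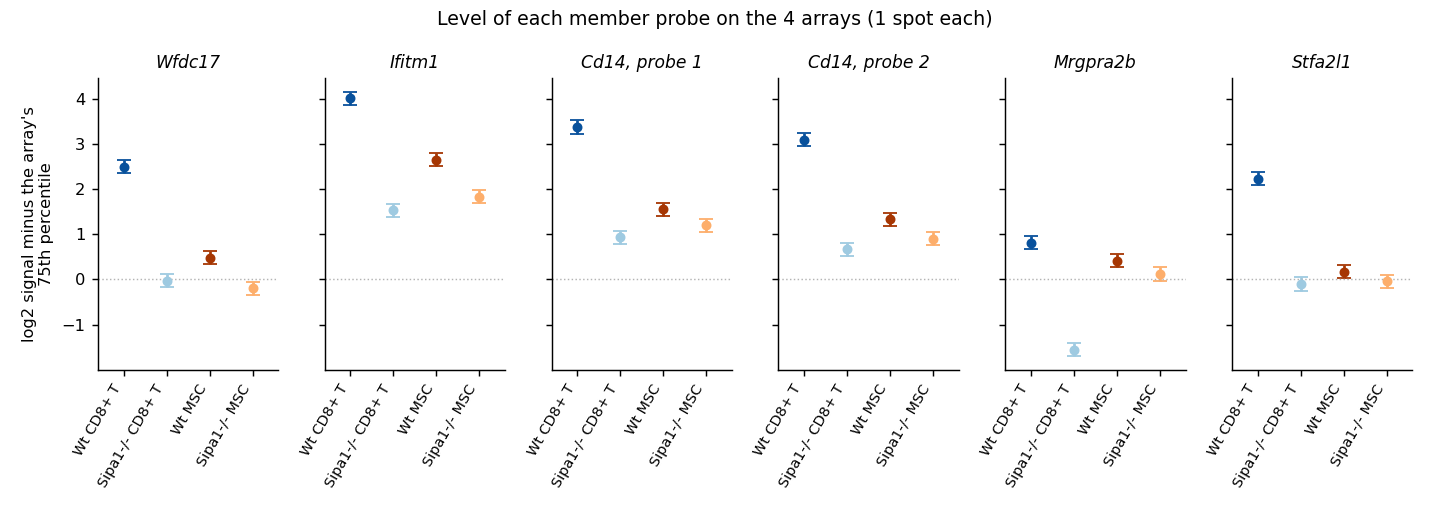
Level of the 6 member probes on the 4 arrays, as log2 signal minus the 75th percentile of the array (y axis). Each point is 1 spot on 1 array, bars are the error of the spot under the scanner software's error model, and the dotted line is the 75th percentile. Wt CD8+ T cells are the highest point in every panel, and *Mrgpra2b* is the panel in which *Sipa1*-/- CD8+ T cells stand lowest, at -1.56.

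All 5 members were at least 2-fold lower in *Sipa1*-/- CD8+ T cells, as their choice fixed, beside 1.4% of the 14339 genes measured on both arrays, and nothing is read from that count. Another 2.66% were at least 2-fold higher, and the median log2 ratio of all genes was -0.02. Besides the members, 7 genes had ratios as low as that of *Stfa2l1*, all of them below the signal limit of the choice: *F2rl1*, *Lrmda*, *Gcnt1*, *Tmem267*, *Cysltr2*, *Mrgpra2a* and the clone *2610507I01Rik*. The limit was a mean log2 signal of -0.39. *Mrgpra2b* lay just above it at -0.37 and its copy *Mrgpra2a* just below it at -0.44, so that 1 of the pair is a member although their ratios were -2.37 and -2.35. At the other limit of the choice, *Stfa2l1* had a log2 ratio of -2.33 and the next gene, *Il1r2*, one of -2.32.

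The 5 genes that followed in the ranking were *Il1r2*, a decoy receptor for interleukin 1, *Il1b*, *Hcar2*, a receptor for hydroxycarboxylic acids, *Acod1*, the enzyme that makes itaconate, and *Clec4e*, the receptor Mincle. Their CD8+ T log2 ratios were -2.32, -2.31, -2.31, -2.30 and -2.30, so that no gap separated the members from them. In MSCs they differed more, with 0.85 for *Il1r2*, -0.64 for *Il1b*, 0.00 for *Hcar2*, -0.36 for *Acod1* and -0.17 for *Clec4e*.

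**Figure D2:**
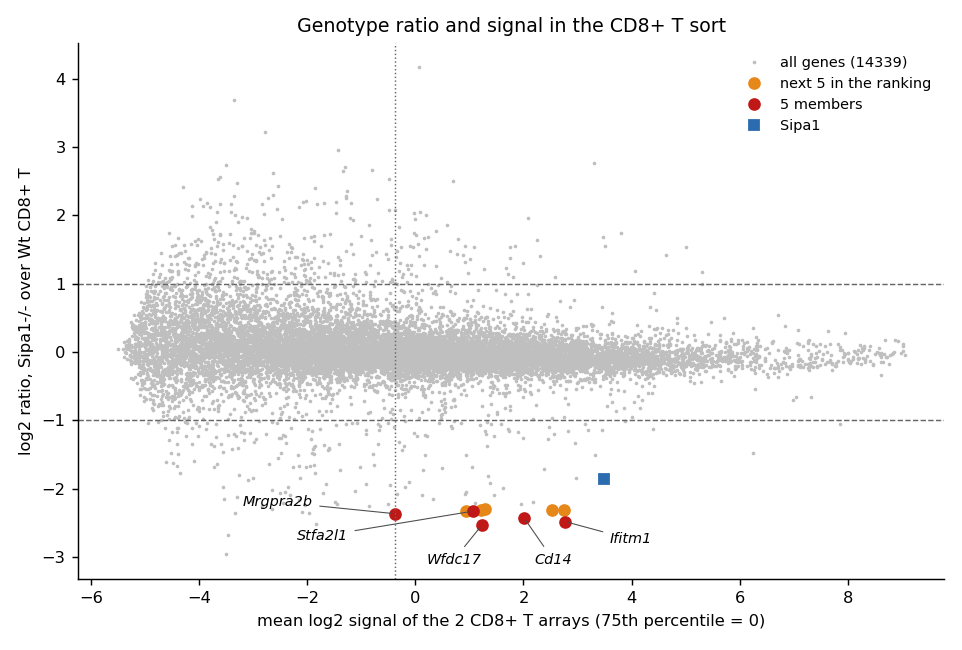
Log2 ratio of *Sipa1*-/- over Wt CD8+ T cells (y axis) against the mean log2 signal of both CD8+ T arrays (x axis) for 14339 genes. Dashed lines mark 2-fold, the dotted line marks the median signal, and colors mark the 5 members, the next 5 genes and *Sipa1*. The members and the next 5 genes lie between -2.53 and -2.30, at the lower edge of the genes above the median signal, while dimmer genes reach -2.96, and *Mrgpra2b* lies on the median line.

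The MSC arrays took no part in the choice of members. All 5 members had a negative log2 ratio of *Sipa1*-/- to Wt MSCs, with -0.82 for *Ifitm1*, -0.67 for *Wfdc17*, -0.39 for *Cd14*, -0.29 for *Mrgpra2b* and -0.21 for *Stfa2l1*. For comparison, 48.2% of the 15298 genes measured on both MSC arrays were below 0. None of the 5 was 2-fold lower, beside 11.3% of all genes, and 19.3% of all genes were at least 2-fold higher. *Stfa2l1* and *Mrgpra2b* differed by little more than the spot error of 0.20, and *Ifitm1* and *Wfdc17* by over 3 times that error. The part of other cells in these values was not tested, but B-lineage markers stood apart on the MSC arrays, with a sum of 374 in Wt and 20.5 in *Sipa1*-/- cells, and all 15 measured B-lineage genes were at least 2-fold lower. With the scaling of the deposited series matrix, the *Stfa2l1* ratio came to -0.0041.

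The ratio in MSCs minus the ratio in CD8+ T cells was 1.66 for *Ifitm1*, 1.86 for *Wfdc17*, 1.99 and 2.08 for the *Cd14* probes, 2.08 for *Mrgpra2b* and 2.12 for *Stfa2l1*, each with a spot error of 0.29. Those differences rest in part on the values that chose the genes and were not tested. Of the 187 genes at least 2-fold lower in *Sipa1*-/- CD8+ T cells that were also measured in MSCs, 11.8% were at least 2-fold lower in *Sipa1*-/- MSCs and 9.63% at least 2-fold higher, beside 11.3% and 19.3% of all genes.

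Between the sorts, 4 of 5 members were at least 2-fold lower in Wt MSCs than in Wt CD8+ T cells, beside 12.8% of 14225 genes. The log2 differences, MSC minus CD8+ T, were -2.06 for *Stfa2l1*, -2.01 for *Wfdc17*, -1.78 for *Cd14*, -1.36 for *Ifitm1* and -0.40 for *Mrgpra2b*. In *Sipa1*-/- mice they were 0.06, -0.16, 0.25, 0.30 and 1.68 in the same order, and only *Mrgpra2b* passed 2-fold, being higher in MSCs as 21.9% of 14300 genes were. All 5 were highest on the Wt CD8+ T array, as were 28.4% of 13766 genes measured on all arrays, and 4 of them exceeded each other array by 2-fold, which 0.4% of these genes did. Each of these comparisons shares a CD8+ T array with the ratio that chose the members, so that no independent value stands behind them.

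Myeloid genes were described through lists of known markers. These lists were chosen with earlier results of these data known, so that their counts are a description and give no independent support. Of 35 granulocyte genes measured on the CD8+ T arrays, 28 were at least 2-fold lower in *Sipa1*-/- cells and 0 higher, beside 1.4% and 2.66% of all genes. The median log2 ratio of the list was -1.50. Without *Mrgpra2b* and *Stfa2l1*, which are on the list, 26 of 33 were lower and the median was -1.48. *S100a9* and *S100a8*, the subunits of calprotectin, read 8.38 and 7.33 and 6.99 and 5.52 in Wt and *Sipa1*-/- cells, and *Camp*, the cathelicidin precursor of neutrophil granules, read 4.96 and 3.84. The list summed to 733 in Wt and 368 in *Sipa1*-/- cells, a 1.99-fold difference in a sum led by *S100a9*.

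Some granulocyte genes had small ratios. *Csf3r*, the receptor for granulocyte colony-stimulating factor, read 6.72 and 6.61, and *Mpo* and *Elane*, granule enzymes of immature neutrophils, had log2 ratios of 0.16 and 0.04, while *Prtn3*, another such enzyme, had -0.85 at a low signal. *Itgam*, which encodes CD11b, had a ratio of -0.09. The lowest ratios of the list belonged to *Mrgpra2b*, *Mrgpra2a*, *Stfa2l1*, *Il1r2* and *Clec4e*, as the choice of the members *Mrgpra2b* and *Stfa2l1* favored. These genes were named after their values were seen.

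The monocyte or macrophage list, to be read beside the same shares of all genes, holds *Cd14*. Of its 30 genes 3 were at least 2-fold lower in *Sipa1*-/- CD8+ T cells, *Cd14*, *Thbs1* and *Clec4n*, and 2 were higher, *Fn1* and *Arg1*, against 1 and 1 under normexp background correction. The median was 0.08, and -0.07 with a median shift in place of the 75th percentile. *Ly6c2*, which T cells express too, read 7.56 and 7.53, *Lyz1* read 4.31 and 3.86, and *Lyz2*, a lysozyme of macrophages and neutrophils, read 2.54 and 1.99. The complement genes *C1qa*, *C1qb* and *C1qc*, typical of macrophages, had log2 ratios of 0.23, 0.29 and 0.51. *Cd14* had the lowest ratio of its list, as its choice favored, and *Thbs1* followed at -1.14.

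In MSCs the lists had other values. Of 36 granulocyte genes 0 were at least 2-fold lower in *Sipa1*-/- cells and 5 were higher, with a median of 0.17 and summed signals of 859 and 999. Of 29 monocyte or macrophage genes 0 were lower and 14 higher, with a median of 0.99. Of all genes, 11.3% were lower and 19.3% higher. Under normexp background correction 8 were higher and the median was 0.62. All 5 members were below both medians in this sort. The part that granulocyte RNA had in the member ratios was not tested, and erythroid markers differed alongside in CD8+ T cells, with sums of 14.5 in Wt and 6.49 in *Sipa1*-/- cells.

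**Figure D3:**
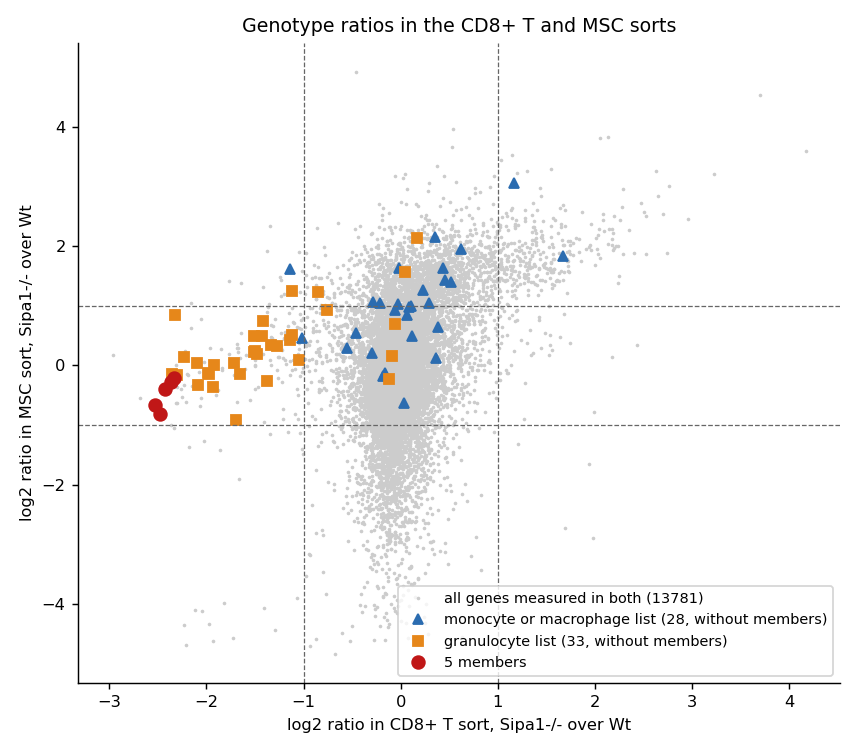
Log2 ratio of *Sipa1*-/- over Wt in the MSC sort (y axis) against that in the CD8+ T sort (x axis) for genes measured in both, with dashed lines at 2-fold. Circles mark the 5 members, squares the other granulocyte genes and triangles the other monocyte or macrophage genes. The members lie far to the left, as their choice fixed, from -2.53 to -2.33 in CD8+ T cells and from -0.82 to -0.21 in MSCs. The granulocyte gene *Mrgpra2a* lies among them at -2.35 in CD8+ T cells. Of the members, *Mrgpra2b* and *Stfa2l1* are on the granulocyte list.

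The genes whose centered signals over the 4 arrays lay nearest to the mean profile of the members were *Clec4e*, *Arg2*, the mitochondrial arginase, *Fpr1*, a receptor for formylated bacterial peptides, *Cxcr2*, the neutrophil chemokine receptor, and *Il1f9*, an interleukin 1 family cytokine. Their Euclidean distances over the 4 log2 values were 0.33, 0.33, 0.34, 0.40 and 0.47, out of 12840 genes ranked. Of the members themselves, *Cd14* and *Ifitm1* lay at 0.23 and 0.25, *Stfa2l1* at 0.49, *Wfdc17* at 0.56 and *Mrgpra2b* at 1.20. *Stfa2l1*, *Wfdc17* and, by the most, *Mrgpra2b* therefore stood farther from the shared profile than the 5 genes named here. That profile rests in part on the CD8+ T values that chose the members.

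Around *Cd14*, the other genes of LPS recognition had ratios of smaller size in CD8+ T cells, as the choice of *Cd14* favored. Beside 1.4% of all genes, 2 of 12 measured receptor genes were at least 2-fold lower, *Cd14* and *Tlr2*, a receptor for bacterial lipoproteins, which read 1.91 and 0.71. *Tlr4*, with 1 of its probes measured, was dim at -3.49 and -4.05, and *Ly96* read 0.31 and -0.02. The genes *Lbp*, *Tlr1*, *Tlr5*, *Tlr6*, *Tlr7*, *Tlr9* and *Cd180* had log2 ratios from -0.42 to 0.22, and *Ly86* one of 0.32. *Tlr8* did not pass the flags.

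In MSCs, over both its probes *Tlr4* read -3.29 in Wt and -2.45 in *Sipa1*-/- cells, *Ly96* read 0.48 and 1.53 and *Tlr2* read 0.81 and 1.27, while *Cd14* had a negative ratio. Of 17 measured adaptor and kinase genes downstream of the receptors, among them *Myd88*, *Traf3*, *Tab1* and *Rela*, 0 passed 2-fold in either sort, with 2 lower in MSCs under the median shift. Of 17 measured genes that LPS is known to induce, 4 were at least 2-fold lower in *Sipa1*-/- CD8+ T cells, *Il1b*, *Acod1*, *Ptgs2* and *Lcn2*, and 1 was higher, *Il10*, which fell short of 2-fold under normexp. *Nfkbia*, *Tnfaip3* and *Ccl4*, also on that list, had ratios of -0.43, -0.25 and 0.62. The list median was -0.25, and -0.62 over its 13 genes above the median signal. In MSCs 0 of 17 were lower and 6 higher. Shares of all genes were 11.3% and 19.3% there, and 1.4% and 2.66% in CD8+ T cells.

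Among WAP-domain genes, 9 of 19 with a probe were measured in CD8+ T cells, and 3 were at least 2-fold lower, beside 1.4% of all genes. These were *Wfdc17*, *Wfdc21* and the dim *Wfdc2*, whose ratio of -1.20 came to -0.42 under normexp. *Wfdc21*, a secreted protein of myeloid cells, read 3.06 and 0.83 in Wt and *Sipa1*-/- CD8+ T cells but 3.53 and 3.67 in MSCs, so that unlike *Wfdc17* it was no lower in Wt MSCs than in Wt CD8+ T cells. *Slpi*, the secretory leukocyte protease inhibitor, had probes that disagree, with CD8+ T ratios of -1.37 and -0.09. *Wfdc18*, at -3.29 in Wt CD8+ T cells, had ratios of -0.53 in CD8+ T cells and 1.30 in MSCs.

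Of the *Ifitm* genes, 5 of 6 with a probe were measured in CD8+ T cells. All 5 ratios were negative, beside a median of -0.02 over all genes. Past 2-fold were 3, beside 1.4% of all genes. *Ifitm6* read 3.27 and 1.07, a ratio of -2.19 that is near that of *Ifitm1*, while *Ifitm7* had -1.15, *Ifitm3* -0.51 and *Ifitm10* -0.16. In MSCs *Ifitm6* read 4.09 and 3.94, and *Ifitm3* and *Ifitm7* were higher in *Sipa1*-/- cells, with 0.93 and 0.88. *Ifitm1* was the only *Ifitm* gene beyond the spot error below 0 in MSCs.

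Other interferon-stimulated genes were described by their list, beside the 1.4% and 2.66% of all genes at least 2-fold lower and higher in CD8+ T cells. Of 23 measured in CD8+ T cells, 20 were below 0 but 3 passed 2-fold, *Rsad2*, *Oas2* and *Ifit3b*, and 1 was higher, *Xaf1*, whose ratio ran from -1.04 to 2.64 over the scalings and probe rules. The count past 2-fold lower was 1 under normexp and 6 under the median shift. The median was -0.50, beside -0.02 over all genes. *Isg15* read 4.49 and 3.54, *Rtp4* 3.91 and 3.29, *Oas1a* 3.52 and 3.13 and *Bst2* 4.03 and 3.98. In MSCs the median was 0.37 and 6 of 23 were below 0, beside 48.2% of all genes.

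Of the stefin and cystatin genes, 12 of 14 with a probe were measured in CD8+ T cells. Beside 1.4% of all genes, 8 were at least 2-fold lower. These were *Stfa2l1* and its neighbors of the stefin A kind, with log2 ratios of -2.10 for *Stfa2*, -2.08 for *Cstdc4*, -1.88 for *Csta3*, -1.69 for *Cstdc5*, -1.66 for *Csta2*, -1.51 for *Stfa1* and -1.41 for *Stfa3*. Under normexp 6 were lower, since *Csta3* came to -0.81 and *Stfa3* to -0.92. *Cstb*, *Cst3*, *Cst6* and *Cst7*, inhibitors outside that cluster, had -0.10, 0.49, -0.13 and -0.02. In MSCs the 8 stefin A genes ran from -0.41 for *Csta3* to 0.74 for *Stfa3*, and *Stfa2l1* was one of 2 below 0, joined under the median shift by *Stfa2*, *Cstdc4* and *Csta2*.

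Because the stefin A genes are near copies, their probes may read more than 1 transcript, and the values of single genes are uncertain. Stefins inhibit cysteine cathepsins, a group that holds all cathepsins on the list except *Ctsa*, a serine carboxypeptidase. Of the 11 cathepsin genes 0 were at least 2-fold lower in *Sipa1*-/- CD8+ T cells and 1 was higher, *Ctsk*, at 1.72. The shares of all genes were 1.4% and 2.66%. *Ctss*, *Ctsa*, *Ctsw* and *Ctsb*, the brightest, had ratios of 0.12, -0.08, -0.09 and 0.25.

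Of 19 Mas-related receptor genes with a probe, 7 were measured in CD8+ T cells. *Mrgpra2a* read 0.74, -1.61, 0.20 and 0.05 in Wt and *Sipa1*-/- CD8+ T cells and Wt and *Sipa1*-/- MSCs, and had the ratio of *Mrgpra2b* within the spot error in both sorts. Whether the probes of this pair read 1 or both transcripts was not tested. No other measured gene of the family was 2-fold lower, and *Mrgpra4*, *Mrgpre*, *Mrgprf*, *Mrgprg* and *Mrgprx2* had ratios of 0.26, 0.84, 1.03, 0.03 and -0.26. The *Mrgprf* ratio came as low as 0.55 over the settings run. *Mrgprb2*, the receptor of connective tissue mast cells, was not well above background on any array.

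**Figure D4:**
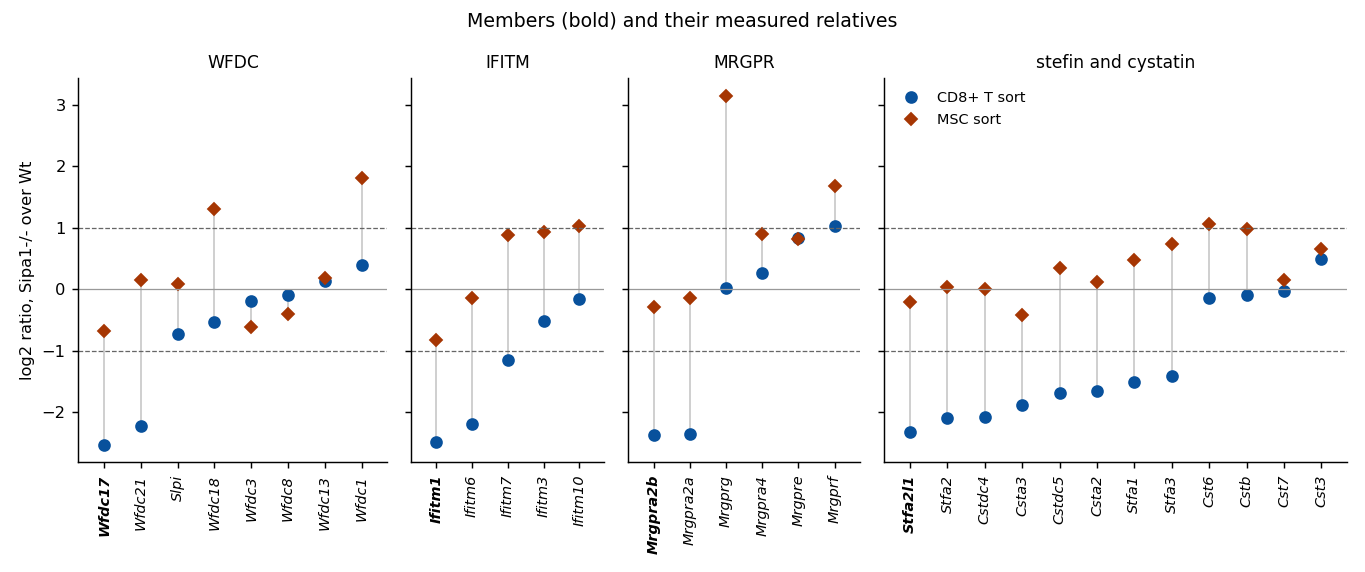
Log2 ratios of *Sipa1*-/- over Wt (y axis) of the measured genes of the 4 families, with circles for the CD8+ T sort, diamonds for the MSC sort and dashed lines at 2-fold. In each family the member, in bold, has the lowest CD8+ T ratio, as its choice favored, and *Wfdc21*, *Ifitm6*, *Mrgpra2a* and 7 stefin A genes lie near it at -2.35 to -1.41 while their MSC ratios lie between -0.41 and 0.74.

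Among transcription factors of myeloid cells, 1 of 9 measured was at least 2-fold lower in *Sipa1*-/- CD8+ T cells, *Cebpb*, which read 3.17 and 1.97, and 2 of 9 under the median shift. *Irf8* read 4.30 and 4.65, *Egr1* 2.17 and 1.32, and *Cebpd* 1.79 and 1.03. *Spi1*, which encodes PU.1, had a ratio of -0.18. In MSCs 5 of 10 were at least 2-fold higher and 1 lower, beside 19.3% and 11.3% of all genes. In CD8+ T cells 1.4% of all genes were at least 2-fold lower.

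Markers of other cells that differed in the CD8+ T sort stand beside these values. Of all genes in that sort, 1.4% were at least 2-fold lower and 2.66% higher, and the median log2 ratio was -0.02. The erythroid list had 6 of 10 genes at least 2-fold lower in the *Sipa1*-/- sort and its median was -1.09, but 3 of 10 and -0.62 under normexp background correction. Of 20 fibroblast genes 19 were at least 2-fold higher, with a median of 1.67. Of 14 B-lineage genes 4 were lower, with a median of -0.15, and of 9 mast cell or basophil genes 2, *Mcpt8* and *Prss34*. Of 7 NK cell genes 6 were below 0 and 1 was at least 2-fold lower, *Klrb1c* at -2.03, with a median of -0.58. Of 10 dendritic cell genes 1 was below 0 and 1 at least 2-fold higher, *Xcr1* at 2.12, with a median of 0.37. The CD8+ T list had 0 of 15 past 2-fold and a median of 0.00. The part of these markers in the member ratios was not tested.

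**Figure D5:**
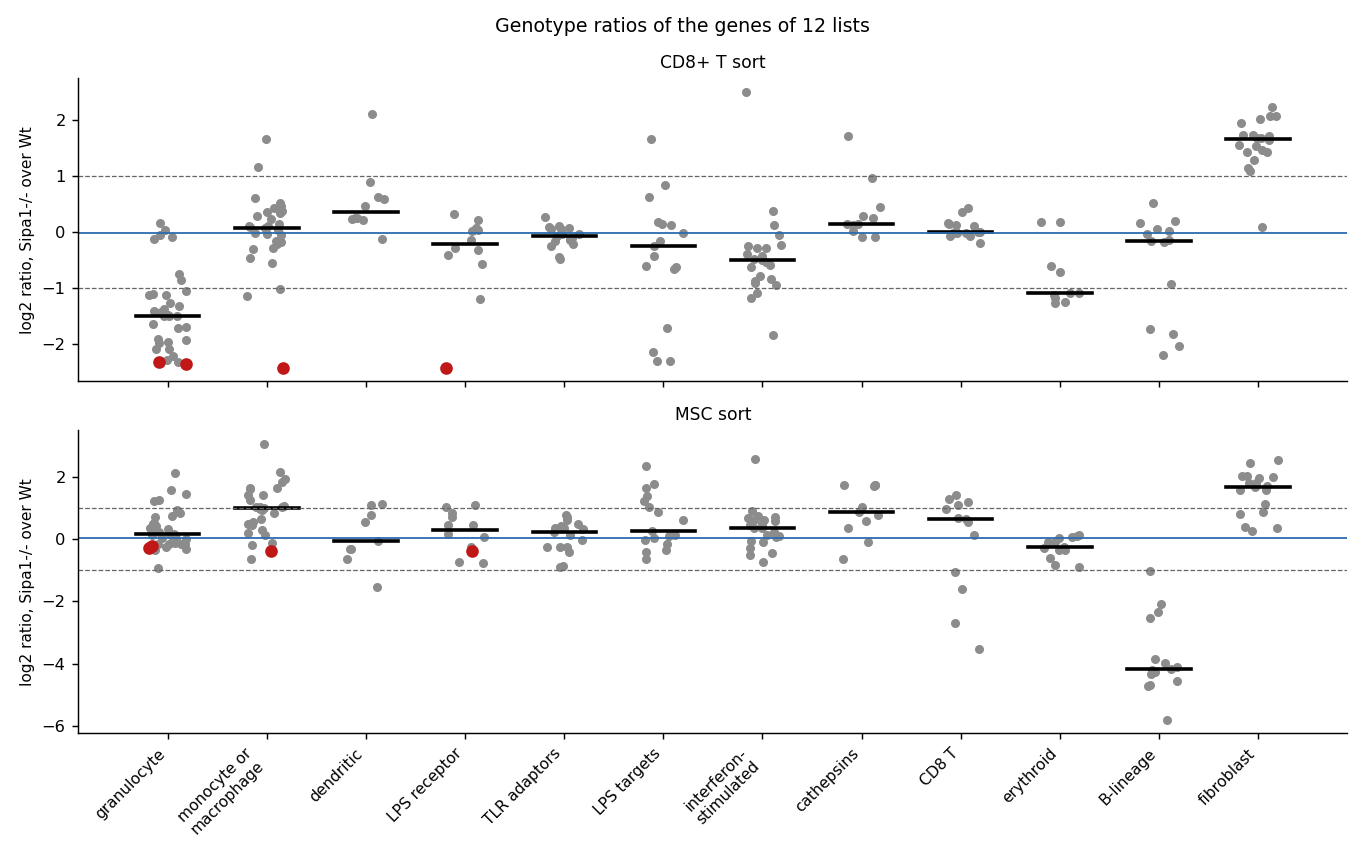
Log2 ratios of *Sipa1*-/- over Wt (y axis) of the measured genes of 12 lists (x axis), in CD8+ T cells above and MSCs below. Each point is a gene, members are the larger red points, black bars are list medians, the blue line is the median of all genes and dashed lines mark 2-fold. The granulocyte median lies at -1.50 in CD8+ T cells and 0.17 in MSCs, and the monocyte or macrophage median at 0.08 and 0.99.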

How the data were processed

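The authors sorted the cells, labeled RNA with Cy3 and hybridized it to 4 Agilent one-color arrays. The deposited scanner files hold spot intensities that the Feature Extraction software (12.0.3.1 per the file headers, 9.1 in the submitters' processing notes) had corrected for background. The deposited series matrix holds these intensities multiplied by 1 constant per array, for which no rule is given in the sources used here. It was used as an alternative. Intensities were put on the log2 scale and lowered by the 75th percentile of their own array, taken over its 59305 spots other than controls. For each comparison a spot had to be flagged well above background, uniform and unsaturated on both arrays compared. Replicate spots gave a mean per probe, and probes a mean per gene. RefSeq accessions gave a symbol to 57.6% of spots. Lists name those genes that have a probe with a symbol, and other genes were not analysed here. Called means a log2 ratio of 1 or more in size. With 1 array per group no test, SE or p-value was computed. The members and the lists were chosen with earlier results of these data known. Genes were named by rule as the members, their ranked neighbors, the nearest profiles, measured relatives, the LPS receptors and the brightest genes of each list in Wt CD8+ T cells, and others only after their values were seen. The scripts were tested on simulated data. They ran in R 4.3.3 with limma 3.58.1, for the normexp alternative, and in Python 3.11.15 with pandas 2.3.3 and numpy 2.4.6, for the quantile alternative and the rest.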

Additional observations from a re-analysis of the deposited data

Results flagged for a closer look

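Of the genes named in the report, those listed here had ratios of opposite sign in the sorts, each beyond the largest spot error of a member ratio, 0.205. The ratio in MSCs minus that in CD8+ T cells is given for each, and the difference was not tested, since each genotype has 1 array per sort. None of the members is among them.

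The genes that follow were lower in *Sipa1*-/- CD8+ T cells and higher in *Sipa1*-/- MSCs. Among genes that LPS is known to induce, the difference was 3.19 for *Ptgs2*, 1.12 for *Tnfaip3* and 1.04 for *Nfkbia*. It was 3.17 for *Il1r2*, the gene that followed *Stfa2l1* in the ranking. For granulocyte genes it was 2.08 for *Prtn3* and 1.63 for *Camp*, and for the basophil gene *Prss34* it was 2.83. For genes of the monocyte or macrophage list it was 2.75 for *Thbs1*, 1.48 for *Clec4n*, 1.00 for *Lyz1* and 0.85 for *Lyz2*. For the stefin A genes it was 2.15 for *Stfa3*, 2.04 for *Cstdc5* and 1.99 for *Stfa1*. For the *Ifitm* genes it was 2.03 for *Ifitm7* and 1.44 for *Ifitm3*, and for *Wfdc18* it was 1.83. For other interferon-stimulated genes it was 1.80 for *Ifit3b*, 1.61 for *Oas2*, 1.29 for *Isg15* and 1.11 for *Rtp4*. For transcription factors it was 2.49 for *Egr1*, 2.39 for *Cebpb* and 1.90 for *Cebpd*. For LPS receptor and adaptor genes it was 1.66 for *Tlr2*, 1.40 for *Tlr4*, which rests on 1 probe in CD8+ T cells and on both its probes in MSCs, 1.36 for *Ly96* and 0.60 for *Myd88*. The CD8+ T ratio of *Ly96*, -0.32, ran from -0.47 to 0.13 over the scalings.

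Higher in *Sipa1*-/- CD8+ T cells and lower in *Sipa1*-/- MSCs were *Irf8*, *Ly86* and *Ccl4*, with differences of -1.12, -1.06 and -1.03.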

How the results depend on the processing

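No paired analysis was possible because each group has 1 array, so that the groups share a single replicate number. All 5 members stayed at least 2-fold lower in CD8+ T cells and below 0 in MSCs under every scaling run. The lowest size in CD8+ T cells was -1.86, for *Mrgpra2b* under normexp with an offset of 50. The flag rules could not move the member ratios, since every member probe passed the flags on all 4 arrays. The probe rule could move only *Cd14*, the member with 2 probes, which also stayed past these limits. The members were the first 5 in the ranking under the median shift and the series matrix values. Both settings move all genes of an array by 1 constant, so that they cannot change the ranking. Of the settings that can, normexp and no flags kept 3 members in the first 5. Quantile normalization, flags on at least 1 array and the brightest probe kept 4. Quantile normalization, the brightest probe and normexp placed *Mrgpra2b* below the median signal, and *Stfa2l1* ranked 7 with flags on at least 1 array, 9 without flags and 6 with normexp. Against 201 lower and 381 higher genes in CD8+ T cells, normexp gave 98 and 108, flags on at least 1 array 371 and 685, no flags 633 and 1059, and a limit at the median signal 70 and 67. In MSCs, with 1733 lower and 2958 higher, that limit left 901 and 1307, and normexp 1828 higher. Lower granulocyte genes in MSCs numbered 1 under the median shift. Lower monocyte or macrophage genes in CD8+ T cells numbered 1 under normexp, and their median turned to -0.0703 under the median shift. The all-gene median shifted by -0.15 (CD8+ T cells) and -0.14 (MSCs) with the median shift, and by 0.13 and 0.21 with the series matrix scaling. Of genes past 2-fold, 65.5% in CD8+ T cells and 63.1% in MSCs were higher. These shares were 76.3% and 74.1% with the series matrix scaling, 52.5% and 54.1% with the median shift, and in CD8+ T cells 52.4% with normexp and 48.9% with the limit at the median signal. Flags and the signal limit change how many genes enter, and otherwise the cause was not tested.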
